A study of Mus musculus with 17 samples.

Results

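Neurofilament subunits and structural microtubule-associated proteins (MAPs) were followed through dilution and amplification of 1 cortical RNA. The 10 genes were Nefl, Nefm, Nefh, Ina, Map1a, Map1b, Map2, Mapt, Map4 and Map6, and their members on the array were all probe sets whose single gene symbol was 1 of these names. The rule found 27 probe sets of 10 genes, among 45037 probe sets and 18193 genes with probe sets of 1 symbol. Map4 had 5 probe sets, Map2 and Mapt 4 each, Ina and Map1b 3 each, Nefl, Map1a and Map6 2 each, and Nefm and Nefh 1 each. Cortex of adult female C57/BL6 mice gave the mRNA, and 17 Affymetrix mouse arrays measured it. Aliquots of 0.1, 1 and 10 pg, the amounts held by single cells or parts of them, were amplified to antisense RNA (aRNA) by in vitro transcription. After 4 rounds of amplification there were 3 arrays each at 0.1, 1 and 10 pg. After 2 rounds there were 3 arrays each at 0.1 and 1 pg and 1 array at 10 pg, and 1 array held 5 µg of bulk mRNA that was not amplified. All groups shared the same RNA, and each amplified array was an independent amplification, so that p-values speak of how far amplifications scattered, with no spread of animals in them. A level is a log2 value with the array's median set to 0, and levels of different probe sets are not set against each other because probes differ in their affinity.

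Neurofilaments are the intermediate filaments of neurons and fill the axon, whose caliber they set. Nefl encodes the light subunit that forms the core of the filament, Nefm and Nefh encode the medium and heavy subunits with long phosphorylated tails, and Ina encodes alpha-internexin, which assembles with them in central neurons. The structural MAPs bind along microtubules and stabilize them. MAP2 is found in dendrites and cell bodies and its mRNA is itself transported into dendrites, tau (Mapt) is enriched in axons, MAP1B in growing axons and MAP1A in mature neurons, MAP4 is made in many cell types, and MAP6 protects microtubules from cold.

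The bulk array held neuronal signal, while markers of other cell types were mixed. The neuronal markers Eno2, Syt1, Snap25 and Rbfox3 lay at percentiles 99.1, 95.1, 94.8 and 79.8 of this array, against percentiles 24.6 and 41.8 for the liver markers Alb and Apoa2. Of the glial markers, 2 of 4 for astrocytes, 2 of 3 for oligodendrocytes and 2 of 4 for microglia lay above the array median. So did 2 of 2 markers of excitatory neurons, 2 of 3 of inhibitory neurons and 1 of 2 of endothelium. Mog, Aldh1l1, Slc32a1, C1qb and Cldn5 lay at percentiles 15.2, 16.4, 18.6, 22.5 and 22.9, below the liver marker Alb. Cortex mixes neurons and glia, so the number of cells and the RNA per cell cannot be told apart in any level. Of the 17 arrays 4 stood apart by how few distinct deposited values they held, from 872 to 1691, against 2102 to 4345 in the other 13. They were the array of 10 pg after 2 rounds, replicates 1 and 2 of 0.1 pg after 2 rounds, and replicate 3 of 1 pg after 4 rounds. Calls of the members that rest on them are also given without them, with some exceptions. The differences of 0.1 from 1 pg within 2 or 4 rounds alone were not refitted without them. Neither were those of 4 from 2 rounds at 1 or 0.1 pg alone. The control probe sets for the 2 ends of the Actb, Gapdh and Tfrc transcripts moved with the input after 4 rounds. The 3′ minus 5′ difference of Actb was -0.81 ± 0.156 at 0.1 pg against 1.13 ± 0.551 at 10 pg, that of Gapdh 3.71 ± 0.0278 against 4.73 ± 0.205, and that of Tfrc 6.62 ± 0.770 against 4.73 ± 0.185 (SD, n = 3 each), and their part in the results was not tested.

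The comparison of 0.1 with 10 pg after 4 rounds asked how the lowest input changed the measured levels at a fixed number of rounds. Nefl, Nefm, Map1b and Map2 lost signal at 0.1 pg by log2 differences of -3.24 to -5.05 in their most changed probe sets, a probe set of Mapt fell by 1.45, and a probe set of Ina rose by 1.52. Of the 27 probe sets 1 rose and 6 fell with limma at an adjusted p under 0.05, or 25.9%, against 8.86% of all probe sets, of which 4.04% rose and 4.82% fell. The members' median difference was -0.47, against 0.10 over all probe sets. At an unadjusted p under 0.05 there were 12 of the 27, against 25.4% of all probe sets. The split of all probe sets, 1818 higher and 2173 lower, turned to 2786 higher and 2256 lower in the deposited values without centering and scaling, in which 2 members rose and 6 fell. The arrays of the 2 inputs did not overlap in 12 of the 27 probe sets, 4 of them higher and 8 lower at 0.1 pg, against 40.3% of all probe sets, 22.8% higher and 17.5% lower. Nefl 1426255_at, Map1b 1421851_at and Map2 1434194_at kept their calls when any 1 of the 6 arrays was left out, whereas the count was then between 3 and 6 of the 27.

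**Figure D1:**
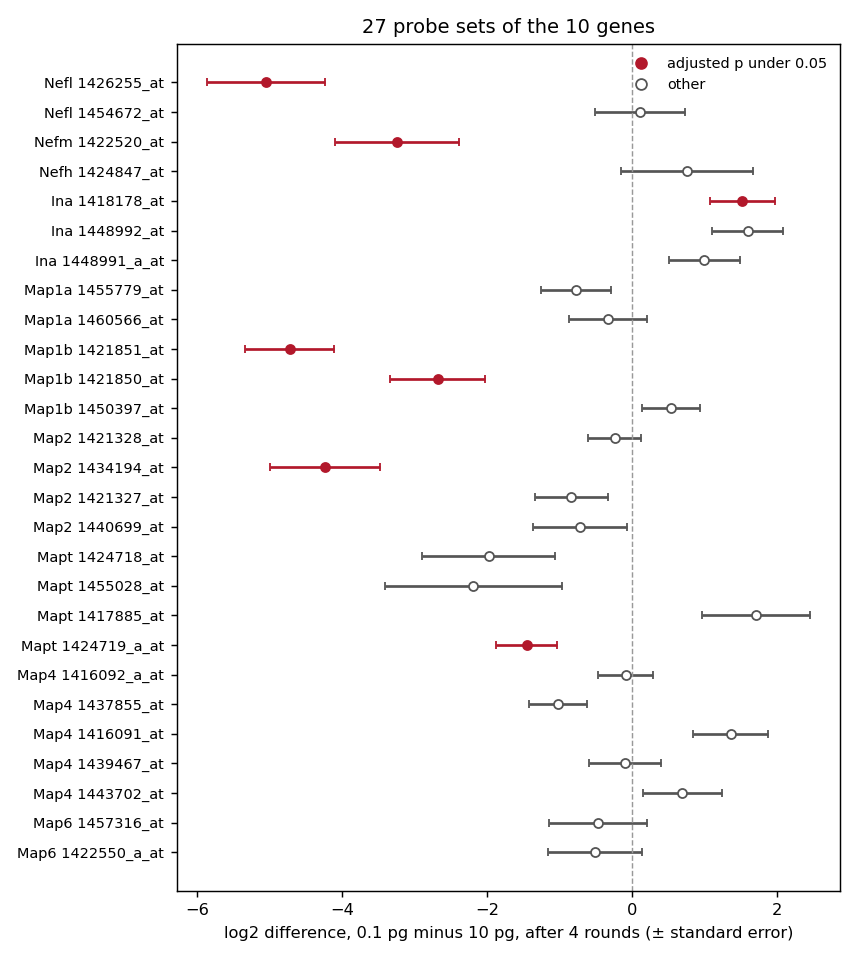
Log2 difference of 0.1 pg minus 10 pg after 4 rounds of amplification (x axis, ± standard error) for each of the 27 probe sets (y axis, gene and probe set); filled red points passed limma at an adjusted p under 0.05. The 6 probe sets that fell lie between -5.05 and -1.45, and Ina 1418178_at alone rose, by 1.52.

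Nefl, the core subunit, was higher at 10 pg than at 1 and 0.1 pg by 1 of its 2 probe sets, 1426255_at. The arrays of 1 and 0.1 pg overlapped. Its probe set 1426255_at read 2.39, -0.35 and -0.26 after 4 rounds and 1.64, -1.05 and -1.04 after 2 rounds at 0.1 pg. The arrays of 1 pg read 2.38, 0.46 and 1.20 after 4 rounds and 2.43, 0.69 and 1.62 after 2 rounds. The arrays of 10 pg read 5.45, 6.22 and 5.25 after 4 rounds and 5.59 on the single array after 2 rounds, and bulk read 4.39. All arrays of 10 pg lay above bulk and all arrays of 1 and 0.1 pg below it, with no overlap. After 4 rounds the difference of 0.1 from 10 pg was -5.05 (SE 0.815, adjusted p = 0.00143), and that of 1 from 10 pg was -4.29 (SE 0.815, adjusted p = 0.0207). The second difference was the only call among the 27 probe sets in that comparison, against 0.646% of all probe sets called and 0.584% called lower. It lost its call without replicate 1 or 2 of 10 pg or without replicate 2 or 3 of 1 pg (adjusted p between 0.0532 and 0.0793), and without the 4 arrays of few distinct values it was -4.22 (adjusted p = 0.0276). Between 0.1 and 1 pg, averaged over rounds, the difference was -1.24 (95% interval -2.46 to -0.02, adjusted p = 0.322). The other Nefl probe set, 1454672_at, did not follow this pattern. It read -0.65, 1.12 and -0.95 at 10 pg after 4 rounds but 2.48 at 10 pg after 2 rounds, against 3.59 in bulk. At 1 pg it read 3.01, 1.00 and 2.14 after 4 rounds and 0.21, -0.09 and -0.05 after 2 rounds. Its difference of 1 from 10 pg after 4 rounds was 2.21, the highest of the 27 probe sets, and was not called. Its difference of 0.1 from 10 pg was 0.11 (SE 0.621, adjusted p = 0.936).

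Nefm, the medium subunit, whose gene neighbours Nefl on chromosome 14, was likewise high at 10 pg. Its probe set 1422520_at read 0.40, 0.54 and -1.03 after 4 rounds and 0.00, -1.39 and -0.14 after 2 rounds at 0.1 pg. For 1 pg the levels were -1.86, -0.55 and 0.88 after 4 rounds and 2.24, -1.46 and 1.47 after 2 rounds. For 10 pg the levels were 4.03, 3.19 and 2.41 after 4 rounds and 5.34 after 2 rounds, and bulk read 1.75. The 4 arrays of 10 pg were the highest of the 17, and the bulk array lay inside the range of 1 pg after 2 rounds. After 4 rounds, 0.1 pg differed from 10 pg by -3.24 (SE 0.859, adjusted p = 0.0275), and 1 pg from 10 pg by -3.72 (SE 0.859, adjusted p = 0.0610), which missed the threshold. Without the 4 arrays of few distinct values the second difference was -4.42 (adjusted p = 0.0348). The first lost its call when any 1 of the 6 arrays other than replicate 3 of 10 pg was left out. Over the 17 arrays Pearson's r of Nefm with Nefl was 0.807, a description of arrays that share their RNA and input.

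Nefh, the heavy subunit, scattered around the median of the arrays, from -1.96 to 1.87. Its probe set 1424847_at read 0.82, -0.21 and -1.81 after 4 rounds and 0.82, 0.56 and -1.53 after 2 rounds at 0.1 pg. At 1 pg it read -1.66, 1.87 and -1.96 after 4 rounds and 0.68, -0.56 and -0.61 after 2 rounds. At 10 pg it read -0.73, -1.05 and -1.69 after 4 rounds and -0.99 after 2 rounds, and bulk read -0.12. All groups overlapped their neighbours in the order of means, and Nefh was called in none of the comparisons. Its difference of 0.1 from 10 pg had a 95% interval of -1.16 to 2.68.

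Ina was higher at 0.1 than at 10 pg after 4 rounds, where Nefl and Nefm were lower. Its probe set 1418178_at read 3.87, 4.42 and 4.10 after 4 rounds and 5.11, 4.57 and 4.86 after 2 rounds at 0.1 pg. The arrays of 1 pg read 2.64, 3.93 and 3.37 after 4 rounds and 3.77, 4.22 and 4.29 after 2 rounds. The arrays of 10 pg read 2.05, 2.46 and 3.35 after 4 rounds and 4.32 after 2 rounds, and bulk read 2.23. All arrays of 0.1 pg lay above bulk and above the 3 arrays of 10 pg after 4 rounds. The difference of 0.1 from 10 pg after 4 rounds was 1.52 (SE 0.449, adjusted p = 0.0453), and it lost its call when any 1 of the 6 arrays other than replicate 3 of 10 pg was left out. The 2 other Ina probe sets, which the annotation places on the same target sequence, had differences of 1.59 (1448992_at, adjusted p = 0.0525) and 0.99 (1448991_a_at, adjusted p = 0.219). Pearson's r of Ina over the 17 arrays was -0.677 with Nefl, -0.362 with Nefm and -0.794 with Map1b, and on the array of 10 pg after 2 rounds, where Nefm was highest, Ina lay within its range at 0.1 pg.

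**Figure D2:**
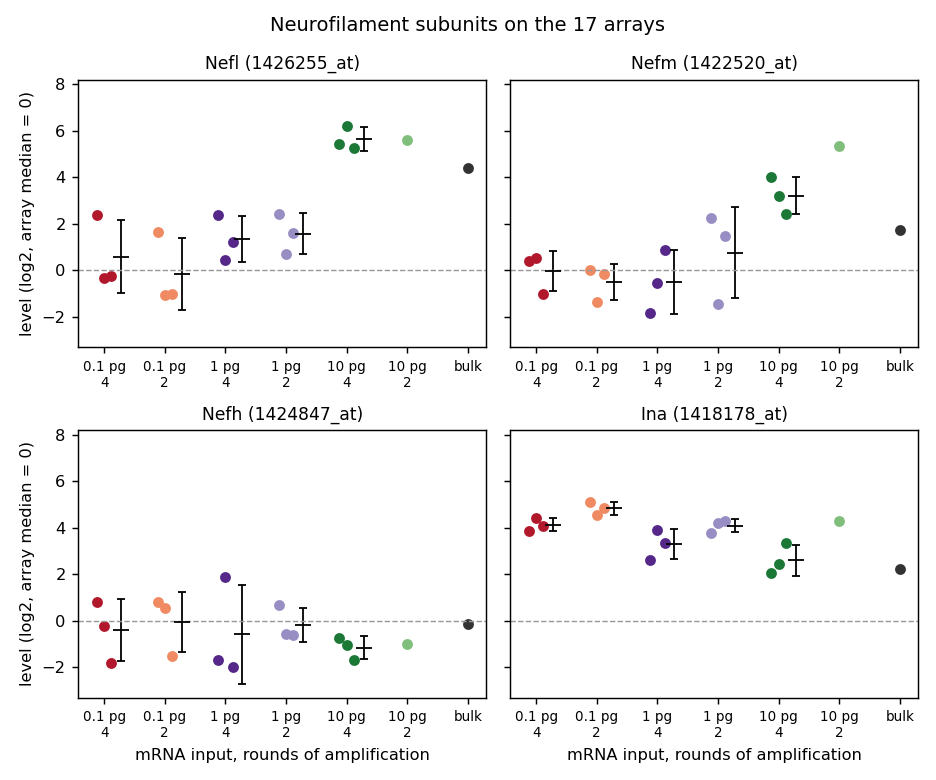
Level of each neurofilament subunit on the 17 arrays (y axis, log2 relative to the array median) by mRNA input and rounds of amplification (x axis), for the probe set of each gene with the highest mean; points are arrays and bars are the mean ± SD of groups of 3. Nefl and Nefm are highest on the 4 arrays of 10 pg (for Nefl from 5.25), Nefh lies between -1.96 and 1.87, and Ina is lowest, at 2.05, on an array of 10 pg after 4 rounds.

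Map1b, the MAP of growing axons, was near bulk in 3 of the amplified groups and near the array median in the other 3. Its probe set 1421851_at read 0.65, 0.40 and -1.03 after 4 rounds and -1.64, -1.39 and 0.27 after 2 rounds at 0.1 pg. For 1 pg the levels were 4.61, 4.81 and 5.20 after 4 rounds but 0.86, 1.53 and -0.24 after 2 rounds. For 10 pg the levels were 5.21, 5.02 and 3.93 after 4 rounds and 4.27 after 2 rounds, and bulk read 5.34. The low arrays, up to 1.53, and the high arrays, from 3.93, left a gap with no array in it. After 4 rounds, 0.1 pg differed from 10 pg by -4.72 (SE 0.615, adjusted p = 0.000342) and 1 pg from 10 pg by 0.15 (95% interval -1.15 to 1.45, adjusted p = 0.983). In the comparison of 0.1 with 1 pg, averaged over 2 and 4 rounds, it was 1 of the 2 probe sets of the 27 that fell, against 1.24% of all probe sets called, 0.255% higher and 0.986% lower. Its difference there was -3.25 (SE 0.435, adjusted p = 0.00119). After 4 rounds alone it was -4.87 (adjusted p = 0.000992), in a comparison that called 2.78% of all probe sets, and within 2 rounds, where 1.57% were called, it was -1.64 (adjusted p = 0.180). Without the 4 arrays of few distinct values the averaged difference was -2.58 (adjusted p = 0.0213).

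The other Map1b probe sets share the target sequence of 1421851_at in the annotation, yet they differed from it in their changes. Probe set 1421850_at read -0.67, -0.65 and -0.26 at 0.1 pg after 4 rounds, against 2.37, 2.40 and 1.69 at 10 pg after 4 rounds, with no overlap. Its difference was -2.68 (SE 0.660, adjusted p = 0.0190), and it lost its call without replicate 1 or 2 of either input (adjusted p between 0.0713 and 0.0788). Probe set 1450397_at lay between -1.83 and -0.30 on all 16 amplified arrays, against 1.18 in bulk, and its difference of 0.1 from 10 pg was 0.53 (SE 0.399, adjusted p = 0.433).

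Map1a, the relative of Map1b in mature neurons, varied less by the probe set of highest mean, with a span of 2.80 against 6.98. Its probe set 1455779_at read 3.34, 2.86 and 2.92 after 4 rounds and 4.94, 3.75 and 5.04 after 2 rounds at 0.1 pg. At 1 pg it read 2.24, 2.68 and 2.56 after 4 rounds and 3.72, 3.18 and 3.34 after 2 rounds. At 10 pg it read 4.83, 3.08 and 3.53 after 4 rounds and 5.03 after 2 rounds, and bulk read 3.81. The arrays of 4 rounds lay below those of 2 rounds at both 0.1 and 1 pg, with no overlap within an input. The difference of 0.1 from 10 pg was -0.77 (95% interval -1.81 to 0.26, adjusted p = 0.341). Probe set 1460566_at reached 5.41 on the array of 10 pg after 2 rounds and lay between 0.86 and 3.18 on the other 16. Its span of 4.54 was larger than those of Map1b 1421850_at (3.79) and Map1b 1450397_at (3.01).

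Map2, the dendritic MAP, differed between its probe sets. Its probe set 1421328_at read 6.38, 6.27 and 6.75 after 4 rounds and 7.58, 7.24 and 7.08 after 2 rounds at 0.1 pg. The arrays of 1 pg read 6.62, 6.74 and 6.86 after 4 rounds and 6.44, 7.02 and 7.0 after 2 rounds. The arrays of 10 pg read 6.91, 6.54 and 6.68 after 4 rounds and 7.10 after 2 rounds, and bulk read 6.16. The 17 arrays spanned 1.43, the smallest span of the 27 probe sets, and the difference of 0.1 from 10 pg after 4 rounds was -0.24 (95% interval -1.03 to 0.54, adjusted p = 0.726). Probe set 1434194_at spanned 7.61. It read 0.34, -0.45 and -1.11 after 4 rounds and -0.72, -2.68 and -1.35 after 2 rounds at 0.1 pg. For 1 pg the levels were 2.99, 1.53 and 0.84 after 4 rounds and 0.58, 3.35 and 1.28 after 2 rounds. For 10 pg the levels were 4.72, 3.81 and 2.95 after 4 rounds and 4.93 after 2 rounds, and bulk read 3.31. The 6 arrays of 0.1 pg lay below all others, and the 3 arrays of 10 pg after 4 rounds overlapped those of 1 pg after 4 rounds only at 2.95 against 2.99. After 4 rounds, 0.1 pg differed from 10 pg by -4.23 (SE 0.754, adjusted p = 0.00277) and 1 pg from 10 pg by -2.04 (SE 0.754, adjusted p = 0.338). Averaged over rounds, 0.1 pg differed from 1 pg by -2.76 (SE 0.533, adjusted p = 0.0165), with -2.20 (adjusted p = 0.126) within 4 rounds and -3.32 (adjusted p = 0.0408) within 2 rounds. The averaged difference was -2.88 (adjusted p = 0.0341) without the 4 arrays of few distinct values. This call was lost without replicate 1 of 1 pg after 4 rounds (adjusted p = 0.0515) or replicate 2 of 0.1 pg after 4 rounds (adjusted p = 0.0509).

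**Figure D3:**
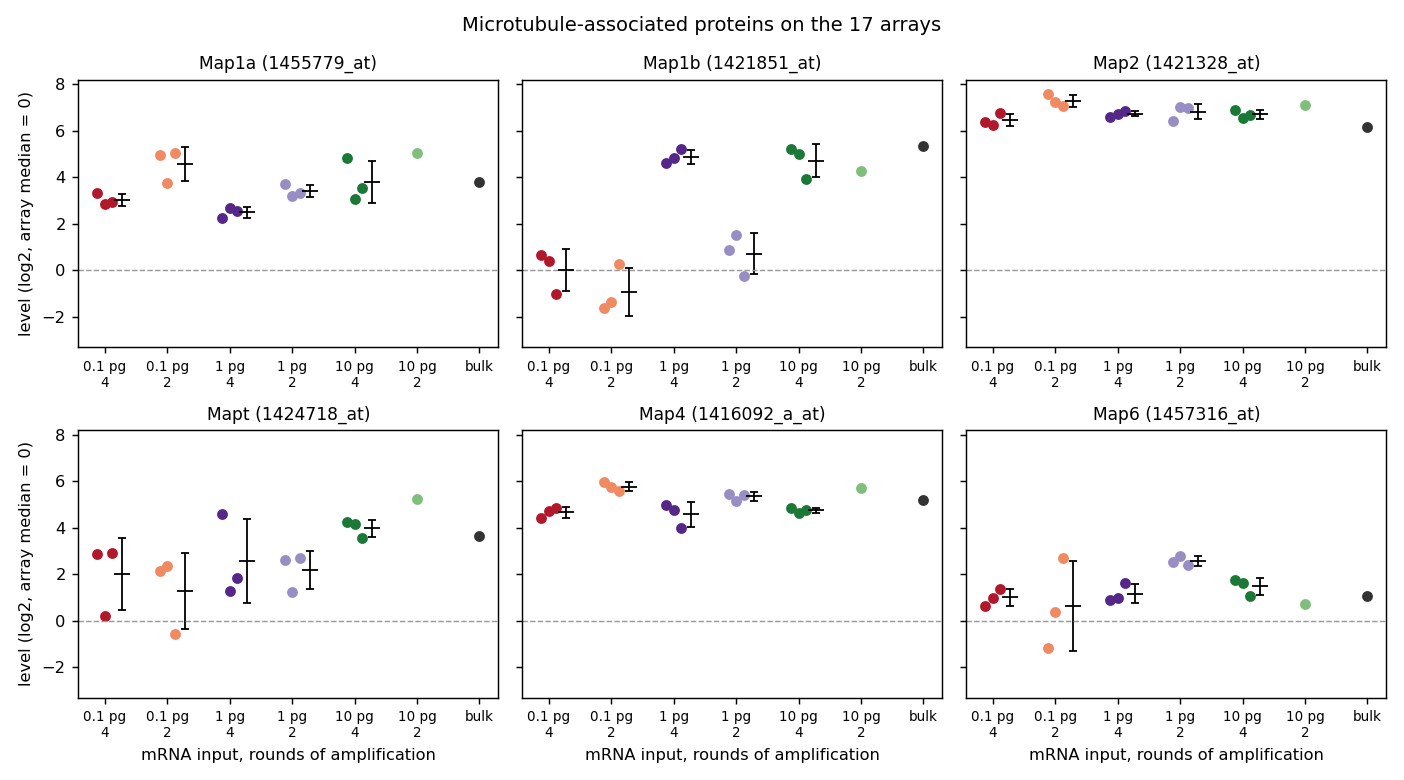
Level of each microtubule-associated protein on the 17 arrays (y axis, log2 relative to the array median) by mRNA input and rounds of amplification (x axis), for the probe set of each gene with the highest mean; points are arrays and bars are the mean ± SD of groups of 3. Map1b forms a low group up to 1.53 and a high group from 3.93, while Map2 stays between 6.16 and 7.58.

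Mapt, which encodes tau, was high at 10 pg in 2 of its 4 probe sets. Its probe set 1424718_at read 2.90, 0.22 and 2.93 after 4 rounds and 2.13, 2.37 and -0.58 after 2 rounds at 0.1 pg. At 1 pg it read 4.62, 1.27 and 1.86 after 4 rounds and 2.60, 1.26 and 2.71 after 2 rounds. At 10 pg it read 4.25, 4.15 and 3.57 after 4 rounds and 5.24 after 2 rounds, and bulk read 3.64. The arrays of 0.1 pg lay below those of 10 pg, while replicate 1 of 1 pg after 4 rounds reached above the 3 arrays of 10 pg after 4 rounds. The difference of 0.1 from 10 pg was -1.98 (SE 0.922, adjusted p = 0.191). Probe set 1455028_at lay between 3.85 and 4.31 at 10 pg after 4 rounds, and at 0.1 pg after 4 rounds it read 0.39, 5.19 and 0.26, so that the inputs overlapped (difference -2.19, SE 1.22, adjusted p = 0.276). Probe set 1424719_a_at, on the same target sequence as 1424718_at, was the only Mapt probe set called between these inputs. It read -1.74, -2.41 and -2.53 at 0.1 pg after 4 rounds, against -0.28, -1.17 and -0.87 at 10 pg after 4 rounds, a difference of -1.45 (SE 0.417, adjusted p = 0.0394) between levels below the array median. After 2 rounds it read -0.35, -0.74 and -0.91 at 0.1 pg, -1.32, -1.23 and -1.85 at 1 pg and 0.27 at 10 pg, with -1.92, -1.29 and -2.05 at 1 pg after 4 rounds and -0.18 in bulk. After 4 rounds its arrays of 0.1 and 10 pg did not overlap, whereas those of 0.1 and 1 pg did. The call between 0.1 and 10 pg was lost when any 1 of the 6 arrays was left out.

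Map4, the MAP of many cell types, was called in none of the comparisons with any of its 5 probe sets. Its probe set 1416092_a_at read 4.42, 4.73 and 4.85 after 4 rounds and 5.96, 5.78 and 5.61 after 2 rounds at 0.1 pg. The arrays of 1 pg read 4.98, 4.77 and 3.98 after 4 rounds and 5.48, 5.16 and 5.44 after 2 rounds. The arrays of 10 pg read 4.86, 4.64 and 4.77 after 4 rounds and 5.74 after 2 rounds, and bulk read 5.19. The arrays of 4 rounds lay below those of 2 rounds at each input, with no overlap. The difference of 0.1 from 10 pg after 4 rounds was -0.09 (95% interval -0.90 to 0.72, adjusted p = 0.913). Of the other 4 Map4 probe sets, 1437855_at lay between 4.09 and 5.57 on all arrays. It was lower at 0.1 than at 10 pg after 4 rounds without overlap, by a difference of -1.02 (SE 0.402, adjusted p = 0.124). Probe set 1416091_at was higher at 0.1 than at 10 pg after 4 rounds, also without overlap, by 1.36 (SE 0.515, adjusted p = 0.111).

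Map6, whose product protects microtubules from cold, was not called either. Its probe set 1457316_at read 0.65, 1.00 and 1.38 after 4 rounds and -1.15, 0.39 and 2.69 after 2 rounds at 0.1 pg. For 1 pg the levels were 0.91, 1.00 and 1.64 after 4 rounds and 2.52, 2.80 and 2.40 after 2 rounds. For 10 pg the levels were 1.77, 1.62 and 1.05 after 4 rounds and 0.72 after 2 rounds, and bulk read 1.09. The 3 arrays of 1 pg after 2 rounds were among the 4 highest, and the range of the 3 arrays of 0.1 pg after 2 rounds covered all arrays of the remaining groups. The difference of 0.1 from 10 pg was -0.47 (95% interval -1.90 to 0.96, adjusted p = 0.706). Probe set 1422550_a_at lay between -3.02 and 0.57 and was called in none of the comparisons.

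Probe sets of 1 gene had differences of both signs between 0.1 and 10 pg after 4 rounds in 4 of the 8 genes with several probe sets, which were Nefl, Map1b, Mapt and Map4. For Nefl the differences were -5.05 and 0.11, for Map1b -4.72, -2.68 and 0.53, and for Mapt from -2.19 to 1.71. No positive difference in these 4 genes was called, and some were smaller than their standard error. How many of all genes had both signs was not counted. By its brightest probe set, and likewise by the median of its probe sets' differences, the value was below 0 in 8 of the 10 genes, with Nefh and Ina above 0.

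**Figure D4:**
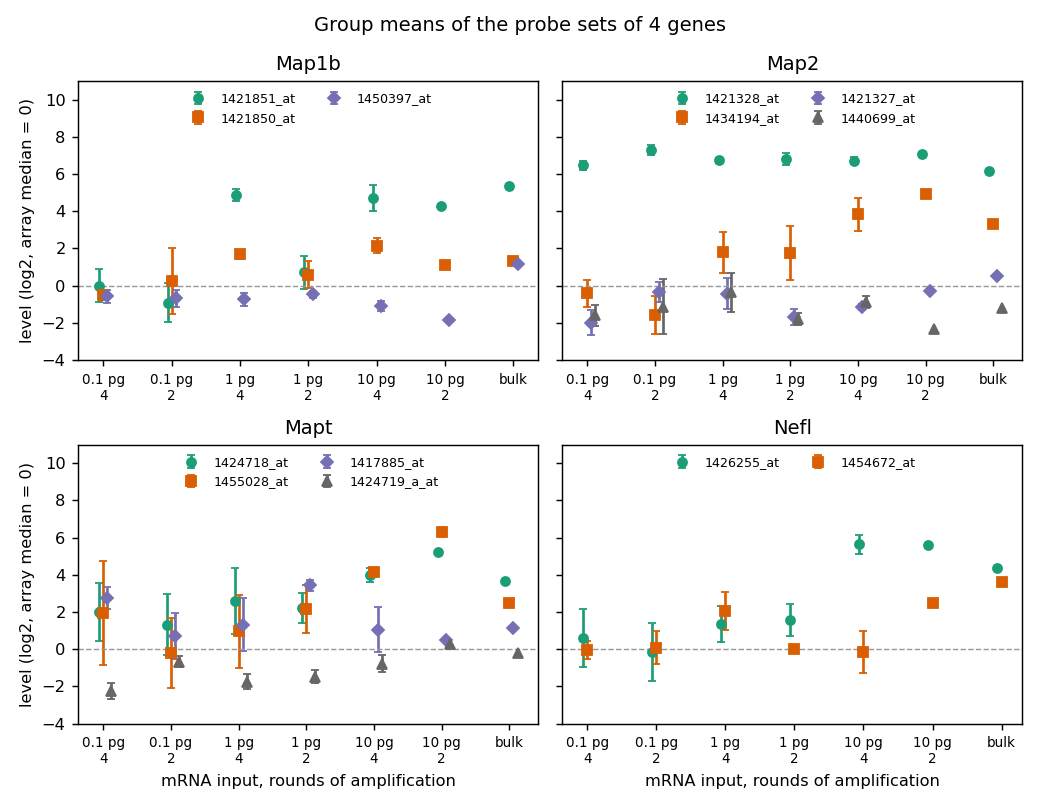
Group means of all probe sets of Map1b, Map2, Mapt and Nefl (y axis, log2 relative to the array median) by mRNA input and rounds of amplification (x axis); bars are the SD of groups of 3, and bulk and 10 pg after 2 rounds, with 1 array each, have none. Within Map2, 1421328_at spans 1.43 over the 17 arrays and 1434194_at spans 7.61.

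The comparison of 4 with 2 rounds, averaged over 1 and 0.1 pg, asked what the added rounds did at a fixed input. Map1b rose in 1 of its 3 probe sets, 1421851_at. Its difference was 2.54 (SE 0.435, adjusted p = 0.00675), the single call among the 27 probe sets, against 3.9% of all probe sets called and 1.99% called higher. The differences of the other Map1b probe sets were 0.17 for 1421850_at (SE 0.467, adjusted p = 0.863) and -0.07 for 1450397_at (SE 0.282, adjusted p = 0.906). At 1 pg, where 3.53% of all probe sets were called, 1421851_at read 4.61, 4.81 and 5.20 after 4 rounds and 0.86, 1.53 and -0.24 after 2 rounds. This was a difference of 4.16 (SE 0.615, adjusted p = 0.00564). At 0.1 pg, where 3.15% were called, the difference of 1421851_at was 0.92 (95% interval -0.38 to 2.22, adjusted p = 0.411). The test of the difference between the inputs gave -3.24 (SE 0.870, adjusted p = 0.050, just above the threshold), which passed in the deposited values (-3.47, adjusted p = 0.0322), with median centering alone (-3.42, adjusted p = 0.0353) and with quantile normalization (-3.41, adjusted p = 0.0396). With the compared groups alone it missed the threshold (adjusted p = 0.0737), and it passed in 3 of the 12 fits that left out 1 array. Without the 4 arrays of few distinct values it was -4.26 (adjusted p = 0.0387), and the averaged effect of rounds was 1.86 (adjusted p = 0.0485). Map1a 1455779_at (-1.23, SE 0.345, adjusted p = 0.0564) and Map4 1416092_a_at (-0.95, SE 0.271, adjusted p = 0.0597) were lower after 4 rounds and missed the threshold; both passed when only the probe sets with a mean above the median were tested (adjusted p = 0.0420 for Map1a and 0.0342 for Map4). The members' median difference was -0.07, against -0.05 over all probe sets.

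The effect of rounds differed between 0.1 and 1 pg in 2 of the 27 probe sets, 1 of Mapt and 1 of Map2, against 3.59% of all probe sets called, 2.46% with a positive and 1.13% with a negative difference. For Mapt 1417885_at, 4 rounds read 3.29, 2.10 and 2.90 at 0.1 pg, against -0.35, 0.39 and 2.10 after 2 rounds. At 1 pg, 4 rounds read 0.40, 2.95 and 0.62, against 3.19, 3.76 and 3.35 after 2 rounds. The effect was thus 2.05 at 0.1 pg and -2.11 at 1 pg, neither called alone (adjusted p = 0.127 and 0.114), and the difference between them was 4.16 (SE 1.06, adjusted p = 0.0403). For Map2 1421327_at, 4 rounds read -2.09, -1.27 and -2.59 at 0.1 pg, against -0.35, 0.21 and -0.91 after 2 rounds. At 1 pg, 4 rounds read -0.82, 0.53 and -1.02, against -1.39, -1.46 and -2.20 after 2 rounds. The effects were -1.64 and 1.24, and their difference was -2.88 (SE 0.709, adjusted p = 0.0360), again between levels mostly below the array median. At 10 pg Mapt 1417885_at read 2.38, 0.02 and 0.77 after 4 rounds and 0.51 after 2 rounds, and 1.13 in bulk. Map2 1421327_at read -1.0, -1.12 and -1.32 at 10 pg after 4 rounds, -0.30 at 10 pg after 2 rounds and 0.51 in bulk. Without the 4 arrays of few distinct values both calls were lost, with differences of 2.42 for Mapt (adjusted p = 0.279) and -2.61 for Map2 (adjusted p = 0.0914).

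**Figure D5:**
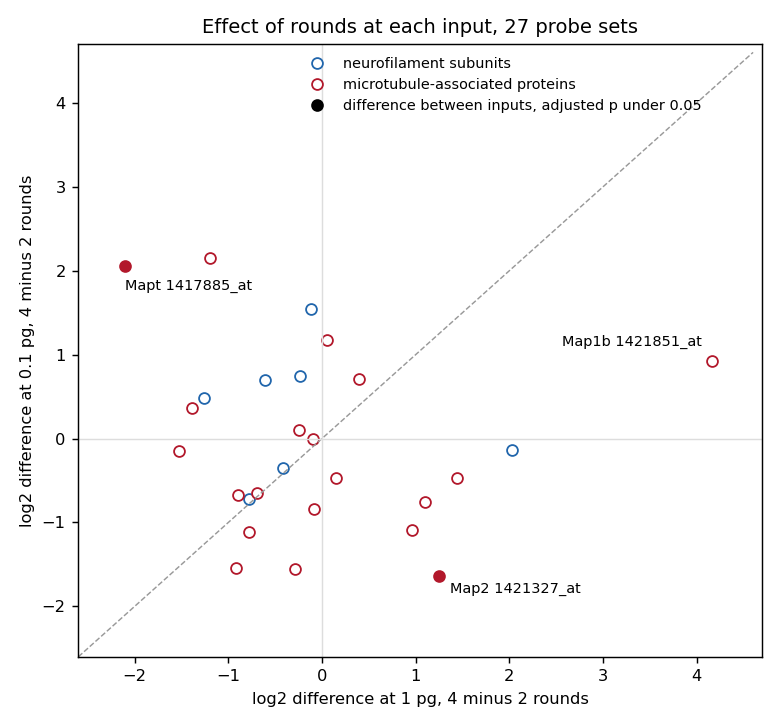
Log2 difference of 4 minus 2 rounds at 0.1 pg (y axis) against that at 1 pg (x axis) for each of the 27 probe sets; blue points are neurofilament subunits, red points are microtubule-associated proteins, filled points passed the test of the difference between inputs, and the dashed line marks equal effects. Map1b 1421851_at stands at 4.16 for 1 pg and 0.92 for 0.1 pg, and the filled points are Mapt 1417885_at and Map2 1421327_at.

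Against bulk, the mean of the 6 amplified groups was called in none of the 27 probe sets, against 1.1% of all probe sets, and 8 of the 27 had an unadjusted p under 0.05, against 13.4% of all probe sets. The bulk group is 1 array, so a deviation of that array and an effect of amplification cannot be told apart. On simulated data for this comparison limma found 4 of 100 changes of log2 2 and 61 of 100 changes of log2 4. The absence of calls therefore says little about changes of log2 2. The smallest adjusted p-values belonged to Map1b, with -2.08 for 1450397_at (SE 0.506, adjusted p = 0.0597) and -3.06 for 1421851_at (SE 0.781, adjusted p = 0.0745), followed by Nefl 1454672_at with -2.86 (SE 0.788, adjusted p = 0.101). Scaling moved the median of all probe sets in this comparison, from 0.30 in the deposited values to 0.10 after centering and scaling, and the split of all calls from 158 higher and 554 lower to 33 higher and 462 lower. Map1b 1421851_at passed in the deposited values (-3.20, adjusted p = 0.0447), and without the array of 10 pg after 2 rounds it passed (-3.46, adjusted p = 0.0337) together with Nefl 1454672_at (-3.21, adjusted p = 0.0499). The fit without all 4 arrays of few distinct values leaves 5 amplified groups, with 1 array of 0.1 pg after 2 rounds. In it the differences were -3.26 for Map1b 1421851_at, -1.97 for Map1b 1450397_at, -3.41 for Nefl 1454672_at and 2.20 for Map4 1416091_at. Ina 1418178_at was higher than bulk by 1.65 (SE 0.571, adjusted p = 0.200).

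Other genes of the same cytoskeleton were each read by their brightest probe set, at which 9.98% of all genes were called between 0.1 and 10 pg after 4 rounds. Of 25 measured other MAPs, 0 rose and 4 fell, the lowest being Dclk1, a microtubule-binding kinase of the doublecortin family (-4.22, SE 0.554, adjusted p = 0.000349), and Map7d2 (-2.91, SE 0.659, adjusted p = 0.0119). Of 21 measured kinases and phosphatases that act on tau, MAPs and neurofilaments, 1 rose and 3 fell. Gsk3b, a tau kinase, had -5.83 (SE 0.667, adjusted p = 0.000136), Cdk5r1, the activator of the neurofilament and tau kinase Cdk5, had -4.17 (SE 0.884, adjusted p = 0.00837), and Ttbk1, tau tubulin kinase, rose by 2.15 (SE 0.527, adjusted p = 0.0187). Of 9 other intermediate filament genes and 6 microtubule-severing genes none was called. The list medians were -0.26 for other MAPs, -0.25 for kinases and phosphatases, -0.22 for intermediate filaments and -0.57 for severing genes, against 0.13 over all genes. Between 1 and 10 pg after 4 rounds the lists held 1 call, against 0.649% of all genes, Mark2 (-2.56, SE 0.530, adjusted p = 0.0331), a kinase of tau and MAPs. Between 0.1 and 1 pg, averaged over rounds, where 1.5% of all genes were called, Dclk1, Cdk5r1, Cdk5r2 and Gsk3b fell by 2.31 to 3.26 on the log2 scale.

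Among 12001 genes above the median of all probe sets, the genes whose pattern over the 17 arrays was most like that of Nefl were Dner (Pearson's r = 0.950), B2m (0.918) and Stx1a (0.917). For Nefm they were Atp5h (0.883), Pde1b (0.872) and Anapc13 (0.871), and for Ina they were Stat5a (0.939), Fsip1 (0.914) and Asph (0.911). Map1b was followed closely by Ptprd, Rab6a and Ids (r from 0.963 to 0.966), Map2 1421328_at by Hspbap1 (0.956), and Map4 by Gnao1 (0.932). The best matches were weaker for Nefh (Ciao3, 0.806), Map1a (Lrrn1, 0.844), Mapt (Anapc4, 0.847) and Map6 (Cdkl3, 0.859). These arrays share their RNA and differ in input and rounds, and no test was made of the correlations.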

How the data were processed

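Affymetrix mouse arrays of cortical mRNA were analysed from deposited log2 values, which the authors made with RMA 2.0. The methods name median centering and scaling, which those values lack. Both were applied here: the median of all probe sets was subtracted on each array, and the spread between percentiles 10 and 90 was set to the mean spread, 4.64. Of 45101 probe sets, 64 controls were left out, and 34945 carried 1 symbol. Group means were fitted over 17 arrays with limma 3.58.1 in R 4.3.3, with 16.4 degrees of freedom in all. Benjamini-Hochberg adjustment ran over 45037 probe sets, with a threshold of 0.05. Bulk and 10 pg after 2 rounds, 1 array each, were taken to vary like the other groups. All 10 genes were named, with every array for the probe set of highest mean and for others called where that one was not. From the other lists up to 2 genes in each direction between 0.1 and 10 pg after 4 rounds were named, and further calls after their values were seen. The members and lists were chosen with earlier results of these data known. No 2 arrays shared over 0.926% of values. On simulated data for 0.1 against 10 pg after 4 rounds (45037 probe sets), limma found 25 of 100 changes of log2 2 and 86 of 100 changes of log2 4. The alternatives were other scalings, a filter, other tests, a block and left-out arrays. The number of arrays limits the precision. Whether the final labelling counts among the rounds is not given in the sources used here.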

Additional observations from a re-analysis of the deposited data

Results flagged for a closer look

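The effect of rounds at 0.1 pg differed from that at 1 pg in 2 probe sets by limma's test of the difference. For Mapt 1417885_at the difference was 4.16 (adjusted p = 0.0403), and when 1 of the 12 arrays was left out it stayed between 3.63 and 4.97 and passed in 2 of 12 fits. For Map2 1421327_at it was -2.88 (adjusted p = 0.0360), and with 1 array left out it stayed between -3.24 and -2.40 and passed in 4 of 12 fits. Groups of 3 arrays were too small for a test of single outlying arrays.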

How the results depend on the processing

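Between 0.1 and 10 pg after 4 rounds, 7 of 27 probe sets were called, against 8.86% of all. There were 8 in the deposited values (11.2% of all), 8 with median centering alone (10.5%) and 7 with quantile normalization (9.31%). The filter on low values called 7 of the 20 members that it tested, against 16.6% of all probe sets in it. The fit of the compared groups alone called 9 of 27 (8102 of all probe sets in that fit, against 3991). Limma at a false discovery rate of 0.1% called 1 (296 of all), Map1b 1421851_at; the methods' t-test called 3 at 0.05 (1598 of all), Map1b 1421850_at, Ina 1448991_a_at and Ina 1448992_at, and 0 at 0.1%. Without the 4 arrays of few distinct values, a choice made after seeing the data, there were 8 (8131 of all). For 1 against 10 pg after 4 rounds, where 1 was called, there were 0 with the compared groups alone (43 of all), 0 at 0.1% (10 of all), 0 with the t-test at either threshold, and 2 without those 4 arrays (670 of all against 291). For 0.1 against 1 pg, where 2 were called, there were 0 at 0.1% (34 of all) and 0 with the t-test. That t-test, like the one for 4 against 2 rounds, pooled the groups of each side. Its spread therefore included the difference between the pooled groups, which limma fitted apart. Without the 4 arrays 1344 of all were called against 559. For 4 against 2 rounds, where 1 was called, there were 3 above the median level (1488 of 22518 probe sets), 0 at 0.1% (20 of all), 0 with the t-test (3 of all at 0.05), 1 with the compared groups alone (850 of all against 1755), and 5 without the 4 arrays (2511 of all; Map1b 1421851_at and Ina 1448991_a_at higher, Map4 1443702_at, Map1a 1455779_at and Map6 1457316_at lower). Against bulk, where 0 were called, there were 1 in the deposited values, 2 with median centering alone (871 of all against 495), 2 without the array of 10 pg after 2 rounds (750 of all) 4 without the 4 arrays (2605 of all) and 0 at 0.1% (4 of all). For the difference in the effect of rounds, where 2 were called, there was 1 with the compared groups alone (881 of all against 1618), 0 at 0.1%, and 2 others without the 4 arrays, Map1b 1421851_at and Ina 1448991_a_at.

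With 1 replicate left out, 3 to 6 were called between 0.1 and 10 pg (1501 to 3814 of all), 0 to 1 between 1 and 10 pg (86 to 350), 1 to 3 between 0.1 and 1 pg (242 to 894), 1 to 2 between 4 and 2 rounds (675 to 2887), 0 to 2 against bulk (303 to 718) and 0 to 3 for the difference in the effect of rounds (341 to 3325). The number of genes lower at 0.1 than at 10 pg after 4 rounds was 8 by the brightest probe set and 7 when the levels of each gene's probe sets were pooled by their median. No difference that was called in the main fit reversed. Over all alternatives, 149 values of these called probe sets kept their call and 83 lost it. Named differences that were not called, some of them close to the spread of single arrays, are not among these values, and their signs were not followed.

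The replicate numbers did not pair the arrays: deviations of same-numbered arrays had a mean correlation of -0.01 over 30 pairs. With the replicate number as a block, 6 were called between 0.1 and 10 pg (3539 of all against 3991), where Ina 1418178_at was lost (adjusted p = 0.0511). For the difference in the effect of rounds 1 was called (1133 of all against 1618), where Mapt 1417885_at was lost (adjusted p = 0.0625). Map1b 1421851_at also stayed uncalled there (adjusted p = 0.069), and the block changed no other call of a named probe set.

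The cause of these changes was not tested. The bulk comparison could not be fitted with the block, since bulk has 1 array. Signal over background was not measured, so values below the array median limit what can be read there.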
